A study of Mus musculus with 8 samples.

Results

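The genes of fatty acid oxidation and ketone body formation were followed in mouse liver after delivery of ATF3, a stress-induced transcription factor. The set held 36 genes, given by symbol and sorted here by role: 4 regulators, 21 mitochondrial genes, 8 peroxisomal genes, 1 ketogenic gene and 2 further genes that respond to the receptor PPAR-alpha. All 36 were listed among the 24972 genes of the deposited table, and all 36 were among the 13301 genes that reached at least 10 normalized counts in at least 4 libraries. C57BL/6J mice aged 10 weeks were given the virus AAV8-ALB-ATF3 (ATF3 group) or AAV8-ALB-Null (Null group) into a vein, and liver RNA was taken 8 weeks later, at an age of 18 weeks. AAV8 is an adeno-associated virus that reaches hepatocytes, and ALB in both names was read as the albumin promoter, which is active in hepatocytes. Each group had 4 libraries, whereas 8 mice per group are stated, and nothing says which mouse or mice a library came from. The p-values therefore measure the spread between these libraries.

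Mitochondrial beta oxidation breaks a fatty acid down to acetyl-CoA by a repeated cycle of dehydrogenation, hydration, dehydrogenation and thiolysis. Long chains enter the mitochondrion as carnitine esters, whereas peroxisomes shorten very long and branched chains and pass the products on. In the fasting liver the acetyl-CoA is turned into ketone bodies, and the nuclear receptor PPAR-alpha, with partners such as the coactivator PGC-1-alpha and the membrane-bound factor CREB3L3, raises transcription of much of this pathway.

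Normalized counts summed to 26175086 to 28446045 per library in Null and 23919261 to 25882965 in ATF3, without overlap. Atf3 held from 20.3 to 24.5 normalized counts in Null and from 5611 to 7053 in ATF3, so the libraries followed their labels. Transcripts of the hepatocyte markers were abundant in all 8 libraries, with 9 of 10 listed marker symbols matched and a summed level of 2360460 to 3675750 in Null and 3284490 to 3870470 in ATF3. Of these 9, 1 was called higher and 2 lower, or 11.1% and 22.2%, beside 11.4% and 9.82% of all genes tested. At an unadjusted p under 0.05 (limma), 1 was higher and 4 were lower, and 7 of the 9 had a negative log2 change. Among 10 macrophage, 8 endothelial, 8 stellate and 6 lymphocyte markers tested with limma, 0 passed in either direction, with 0, 1, 2 and 0 at an unadjusted p under 0.05. With library weights in the fit, 1 macrophage marker was called higher, and 1 endothelial and 1 stellate marker lower. Of all 13301 genes, that fit called 2271 higher and 2130 lower. The summed macrophage markers ranged from 10123 to 15152 in Null and from 11706 to 16638 in ATF3. All 10 had a positive log2 change, and ATF3 1 held the most, with Marco at 1453 against 130 to 365 in the other 7 libraries. Of the 5 cholangiocyte markers tested, 1 was called lower. The 5 adipocyte markers did not pass the filter, but they summed to 253 in Null 3 against at most 10.4 elsewhere, with Null 3 holding Adipoq at 38.7, Plin1 at 21.1 and Lep at 1.52. In the other 7 libraries Lep was at 0, Adipoq at most 4.49 and Plin1 at most 1.12. The part of these cell types in the results was not tested. In bulk RNA, fewer cells of a type and less RNA per cell cannot be told apart.

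Of the members, 15 rose by modest amounts, 2 fell, of which Crot changed the most, and 19 did not pass. At an adjusted p under 0.05 (limma, Benjamini-Hochberg over all 13301 genes), 15 of the 36 members were higher and 2 were lower in ATF3, or 41.7% and 5.56%. Of all genes tested, 11.4% were called higher and 9.82% lower. The median log2 change of the members was 0.30, beside 0.01 for all genes tested, and 29 of the 36 had a positive value. The members that rose did so by 0.26 (Decr2) to 0.97 (Crat) on the log2 scale, and the 2 that fell were Crot and Eci2. By class, 3 of 4 regulators rose, 7 of 21 mitochondrial members rose and 1 fell, and 3 of 8 peroxisomal members rose and 1 fell. The groups did not overlap for 15 members on the higher and 2 on the lower side, where 13.7% and 12.6% of all tested genes did the same. Of the 17 members called, 16 had groups without overlap, Hadhb being the exception, and Acads was apart without being called. Without Null 4, 18 members were higher and 3 lower. Without ATF3 3 or ATF3 4, 10 were higher and 1 was lower. The calls among all genes moved likewise, from 1513 higher and 1306 lower in the main fit. They were 1965 and 1812 without Null 4, 1040 and 851 without ATF3 3, and 1047 and 899 without ATF3 4. With the TPM as deposited, where Mir6236 held 0.308% to 89.4% of a library and the median of all genes was 0.68, limma called 0 members, with 6 higher and 0 lower at an unadjusted p under 0.05.

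**Figure D1:**
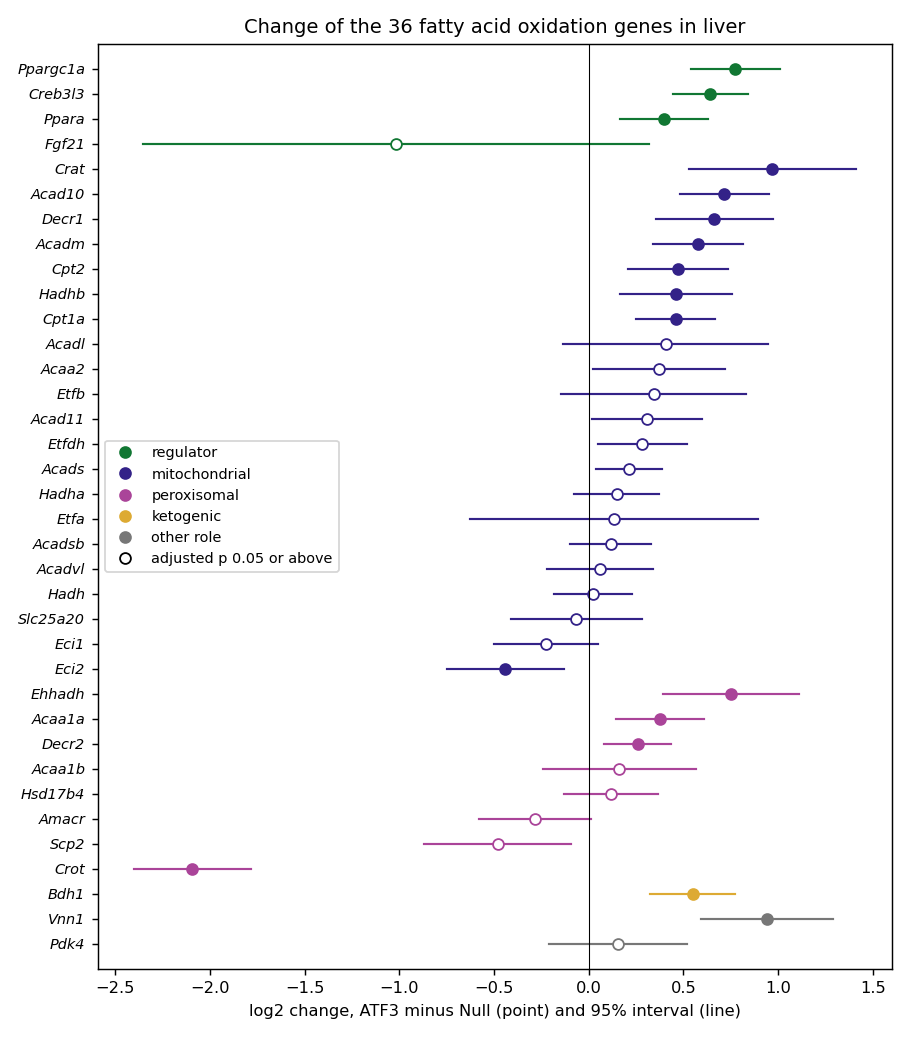
Log2 change (ATF3 minus Null, horizontal axis) of the 36 members with the 95% interval of the limma fit, coloured by class. Filled points passed at an adjusted p under 0.05. Crot at -2.09 lies apart from all other members, and 15 filled points lie above 0.

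The libraries within a group did not carry equal levels of these genes. ATF3 1 held the lowest value of its group in 27 of the 36 members (75%), compared with 33% of all genes tested. Null 4 held the highest value of its group in 18 members (50%), compared with 37.2% of all genes. It also held the lowest value for 33.9% of all genes. Over all genes, the median absolute distance from the group mean was 0.23 in Null 4 on the log2 scale. In the other libraries it was 0.085 to 0.17. The median of the members, relative to the Null mean, was 0.21 in ATF3 1 and 0.33 to 0.35 in the other ATF3 libraries. In Null it ranged from -0.06 to 0.10. By the rough estimate from the most frequent low value, ATF3 1 and Null 2 were the deepest libraries, at 48.5 M reads each, against 17.2 to 24.6 M in the rest. Whether depth bears on the levels was not tested.

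**Figure D2:**
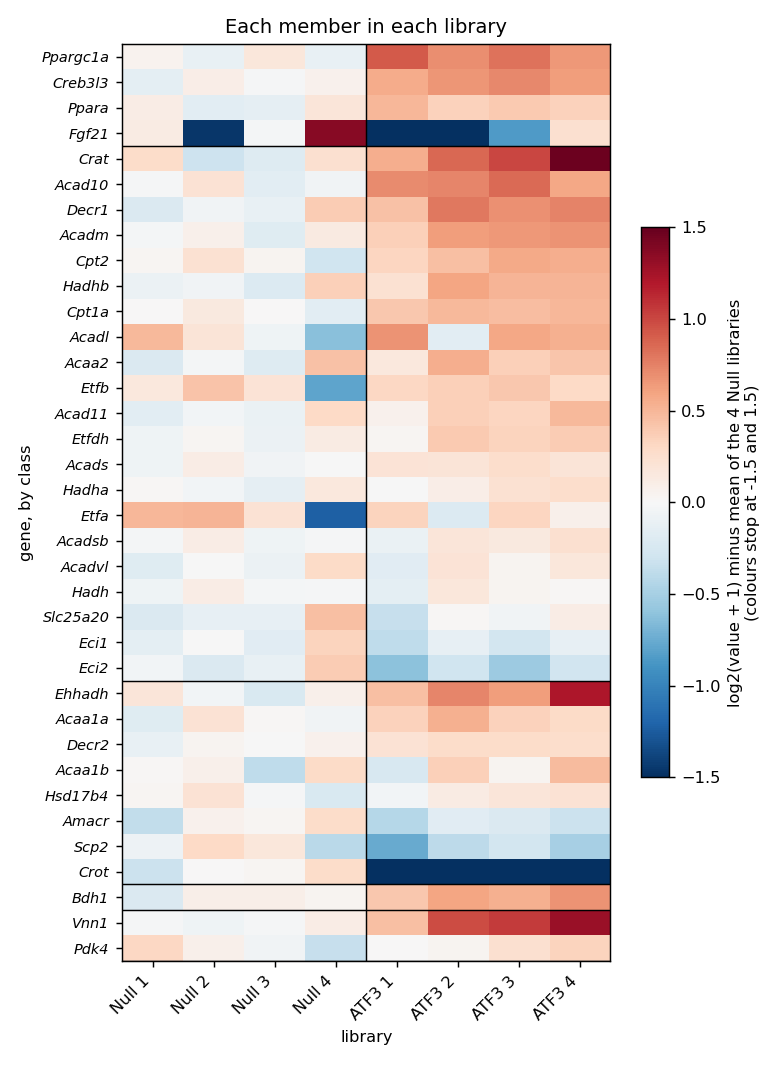
Each member (rows, grouped by class) in each library (columns), as log2(value + 1) minus the mean of the 4 Null libraries. The ATF3 columns are mostly red in the regulator and mitochondrial rows and blue for Crot, Eci2 and Scp2, and Null 4 is blue for Etfa, Etfb and Acadl.

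Of the regulators, Ppargc1a, Creb3l3 and Ppara rose and Fgf21 did not pass. Ppargc1a encodes the coactivator PGC-1-alpha. It measured 383, 340, 412 and 341 normalized counts across Null 1 to 4, against 699, 597, 647 and 579 across ATF3 1 to 4. Every ATF3 library lay above every Null library, and the log2 change was 0.77 (SE 0.11, adjusted p = 0.000634). Creb3l3, a liver-enriched transcription factor activated by fasting, measured 6359, 7526, 6952 and 7337 across Null 1 to 4, against 10305, 11138, 11588 and 10899 across ATF3 1 to 4. These groups were also apart, with a log2 change of 0.64 (SE 0.09, adjusted p = 0.000686). Ppara, the receptor gene itself, measured 13889, 11492, 11708 and 14544 across Null 1 to 4, against 18062, 16364, 16915 and 16370 across ATF3 1 to 4. The lowest ATF3 library exceeded the highest Null library, and Ppara rose by 0.40 (SE 0.11, adjusted p = 0.0227). The Ppara call was lost without Null 2, Null 3, ATF3 1, ATF3 3 or ATF3 4, with an adjusted p of 0.00649 to 0.0662 over all 8 omissions.

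Fgf21 encodes a secreted hormone that PPAR-alpha induces in the fasted liver. Its level was near the filter, with 35.8, 11.3, 32.3 and 86.2 normalized counts across Null 1 to 4, against 9.38, 9.08, 17.8 and 39.1 across ATF3 1 to 4. The groups overlapped, and the log2 change of -1.02 (SE 0.60, adjusted p = 0.269) had a 95% interval of -2.35 to 0.32. Without Null 4 it was -0.56. Fgf21 thus was the regulator with the least certain value, while the other 3 had an SE of at most 0.11.

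The stretches upstream of Ppargc1a and Creb3l3 are printed because these were, beside Crot, the members with the smallest p. Creb3l3 has 2 start sites, and only the stretch of the site with a match is printed. They come from RefSeq for build GRCm38.p6 and are read along the strand of the gene, and the parts shown lie outside annotated exons. Capitals mark a match to TGANGTCA, a form of the ATF and CREB element with 1 base left free, or to TGANTCA, the AP-1 element.
Ppargc1a, chr5:51567727-51567975, minus strand: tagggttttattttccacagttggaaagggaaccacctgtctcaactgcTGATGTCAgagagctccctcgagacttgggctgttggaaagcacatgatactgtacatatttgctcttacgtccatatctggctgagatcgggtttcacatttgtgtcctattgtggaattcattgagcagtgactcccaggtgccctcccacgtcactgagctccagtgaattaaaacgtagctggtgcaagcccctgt
Creb3l3, chr10:81098875-81099122, minus strand: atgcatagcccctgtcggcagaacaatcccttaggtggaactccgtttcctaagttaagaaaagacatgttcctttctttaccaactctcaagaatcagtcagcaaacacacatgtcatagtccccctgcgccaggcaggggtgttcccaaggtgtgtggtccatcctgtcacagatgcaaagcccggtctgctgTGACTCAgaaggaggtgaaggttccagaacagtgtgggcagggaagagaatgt
Both strands of the 250 bases before each start site were searched for 30 member genes with an entry. TGANGTCA was found for 1 of them, Ppargc1a, and in 8.55% of all 27025 genes with an entry. TGANTCA was found for 2, Creb3l3 and Acadsb, and in 7.82% of all genes. A direct repeat of AGGNCA with 1 base between, the form of element that PPAR-alpha binds with RXR, was found for 0 of the 30 and in 0.4% of all genes. No match overlapped another. The windows of Crot, Ppara and Fgf21 held none of these letters. Neither did the window of the other Creb3l3 start site, chr10:81092592-81092841.

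Carnitine carries fatty acyl groups across membranes, and the genes of this step moved in opposite directions. Crot, the octanoyltransferase of peroxisomes that makes medium-chain acylcarnitines for export to mitochondria, lies on chromosome 5 at 8966033 to 8997324 (minus strand, mm10). It measured 17259, 21684, 22012 and 26000 normalized counts across Null 1 to 4, against 4601, 6051, 4963 and 4686 across ATF3 1 to 4. The mean in Null was 4.28 times that in ATF3, and the highest ATF3 value, 6051, lay under the lowest Null value, 17259. Crot fell by 2.09 on the log2 scale (SE 0.14, adjusted p = 4.88e-06) and ranked 75 of 13301 genes by p. Without each single library in turn the value stayed between -2.20 and -2.00. Crat, the acetyltransferase that acts on short chains in mitochondria and peroxisomes, went the other way. It measured 1404, 941, 1015 and 1370 across Null 1 to 4, against 1703, 2122, 2325 and 3229 across ATF3 1 to 4. Crat rose by 0.97 (SE 0.20, adjusted p = 0.00655), with ATF3 4 well above the other ATF3 libraries.

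On the long-chain route, Cpt1a, the outer-membrane carnitine palmitoyltransferase that limits the rate of entry, measured 13569, 14889, 13492 and 12084 across Null 1 to 4, against 17760, 18798, 18529 and 18961 across ATF3 1 to 4. The ATF3 libraries lay close together and above all Null libraries, and Cpt1a rose by 0.46 (SE 0.09, adjusted p = 0.00622). Cpt2, its partner on the inner membrane, rose by 0.47 (SE 0.12, adjusted p = 0.0176), its Null mean being 3628 ± 530 and its ATF3 mean 5007 ± 389 normalized counts (SD, n = 4). The Cpt2 call was lost without ATF3 3 or ATF3 4 (adjusted p from 0.0134 to 0.0609 over the 8 omissions). Slc25a20, the carrier that exchanges acylcarnitine for carnitine between them, measured 2345, 2500, 2499 and 3708 across Null 1 to 4, against 2133, 2759, 2625 and 2930 across ATF3 1 to 4. The groups overlapped and the log2 change was -0.07, with a 95% interval of -0.41 to 0.28. Without Null 4, its highest library, the value was 0.08 (adjusted p = 0.599, range over the omissions 0.599 to 0.925).

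**Figure D3:**
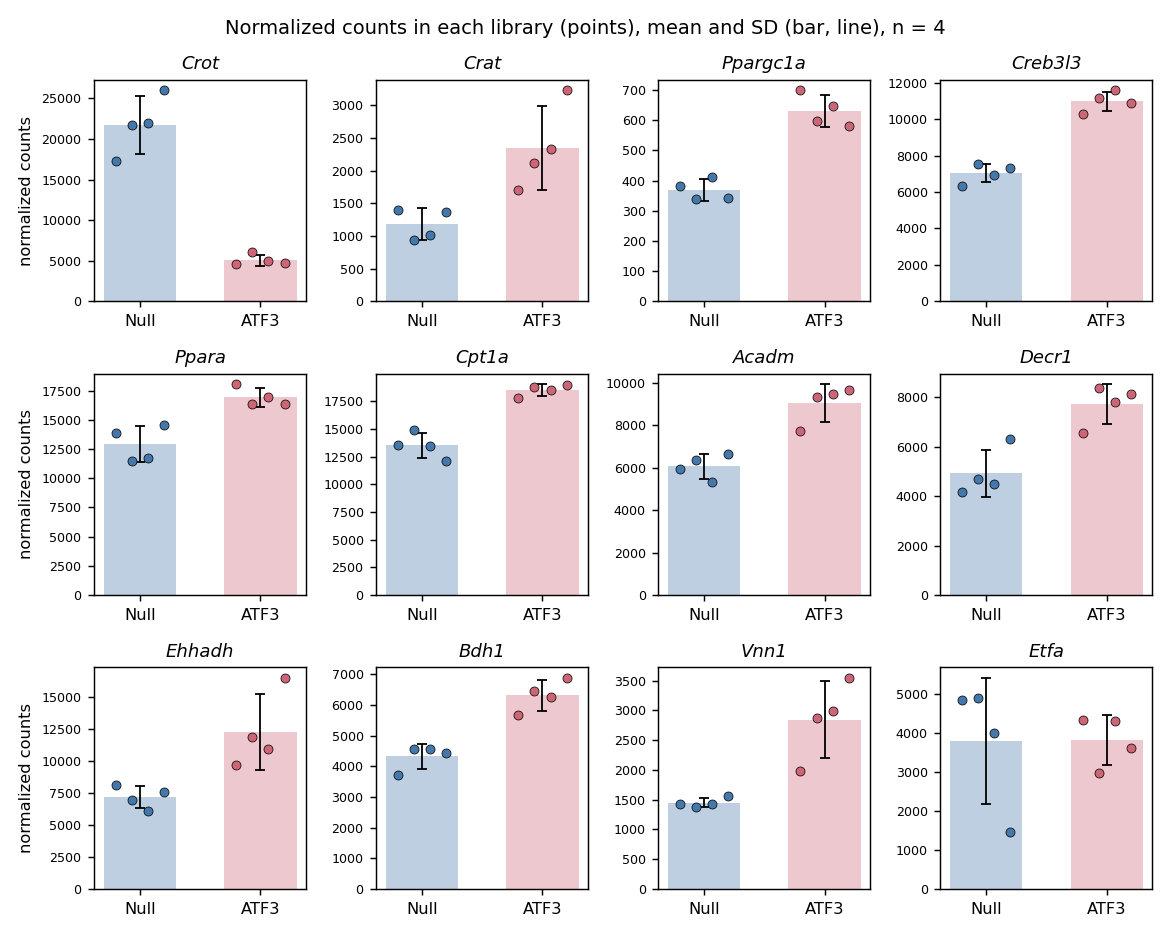
Normalized counts (vertical axis, from 0) of 12 members in each Null and ATF3 library (points), with the mean (bar) and SD (line) of 4 libraries. Crot falls from 21739 to 5075 on average, 10 of the others lie higher in every ATF3 library, and Etfa overlaps, with Null 4 at 1469.

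Of the 7 acyl-CoA dehydrogenases, which carry out the first oxidation, 2 rose and 5 did not pass, beside 11.4% of all genes called higher. Acadm, the medium-chain enzyme, measured 5941, 6347, 5307 and 6647 across Null 1 to 4, against 7737, 9342, 9453 and 9653 across ATF3 1 to 4. All ATF3 values were above all Null values, and Acadm rose by 0.58 (SE 0.11, adjusted p = 0.00383). Acad10, a less characterized family member expressed at a low level, measured 573, 674, 521 and 560 across Null 1 to 4, against 944, 961, 1043 and 869 across ATF3 1 to 4. It rose by 0.72 (SE 0.11, adjusted p = 0.000965). Of its 31-base stretches, 22.9% occur in transcripts of the neighbouring gene Acad12, so reads of both genes may be mixed. Acads, the short-chain enzyme, measured 2368, 2686, 2397 and 2471 across Null 1 to 4, against 2845, 2823, 2974 and 2838 across ATF3 1 to 4. Its groups did not overlap, but the change of 0.21 (SE 0.08, adjusted p = 0.083) did not pass, although it did with upper-quartile rescaling (0.0498).

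The very-long-chain enzyme gene Acadvl, at 0.06, and the short and branched-chain gene Acadsb, at 0.12, had intervals that reached at most 0.34. Acadl, the long-chain enzyme, was less certain, at 0.41 with an interval of -0.13 to 0.95, and leaving out 1 library moved it between 0.20 (without Null 4) and 0.59 (without ATF3 2). It measured 3934, 3224, 2691 and 1824 across Null 1 to 4, against 4467, 2518, 4194 and 4075 across ATF3 1 to 4, so that Null 4 and ATF3 2 were low. Acad11, found in peroxisomes as well as mitochondria, stood at 0.31 (SE 0.13, adjusted p = 0.126). Without Null 4 it was 0.41 and passed, with an adjusted p of 0.0194 to 0.295 over the 8 omissions.

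The electron transfer flavoprotein takes the electrons of these dehydrogenases to the respiratory chain, and of its 3 genes 0 passed with limma, 1 (Etfdh) being under 0.05 unadjusted and called with library weights. Etfa, the alpha subunit, measured 4859, 4906, 3992 and 1469 across Null 1 to 4, against 4334, 2987, 4314 and 3622 across ATF3 1 to 4. Etfb, the beta subunit, measured 3090, 3723, 3180 and 1601 across Null 1 to 4, against 3420, 3550, 3668 and 3404 across ATF3 1 to 4. Both subunits were at their lowest in Null 4, as Acadl was. With Null 4 left out, Etfa moved from 0.13 to -0.28 (adjusted p = 0.164, range 0.164 to 0.934) and Etfb from 0.34 to 0.08 (adjusted p = 0.526, range 0.161 to 0.526). Of the stretches of Etfb, 49.9% occur in other annotated genes. Etfdh, the ubiquinone oxidoreductase, was at 0.28 (SE 0.11, adjusted p = 0.0854) and passed without Null 4 or without ATF3 1 (adjusted p from 0.023 to 0.215 over the omissions).

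Of the 4 members of the later steps of the mitochondrial cycle, 1 rose and 3 did not pass, beside 11.4% of all genes called higher. Hadha and Hadhb encode the alpha and beta subunits of the trifunctional protein, and they start back to back on chromosome 5. In mm10 Hadha occupies 30118304 to 30155162 on the minus strand and Hadhb 30155248 to 30184593 on the plus strand. The stretch between them is shown because both subunits start from it.
Hadha-Hadhb, chr5:30155163-30155247, plus strand: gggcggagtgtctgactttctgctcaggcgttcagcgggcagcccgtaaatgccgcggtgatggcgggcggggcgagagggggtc
These 85 bases hold none of the elements searched. Hadhb measured 5455, 5593, 5064 and 7427 across Null 1 to 4, against 6815, 8752, 8260 and 8302 across ATF3 1 to 4. Null 4 lay above ATF3 1, and Hadhb rose by 0.46 (SE 0.13, adjusted p = 0.0337). The call was lost without Null 1, Null 2, Null 3, ATF3 2, ATF3 3 or ATF3 4 (adjusted p from 0.00222 to 0.0921). Hadha measured 9543, 9215, 8598 and 10571 across Null 1 to 4, against 9410, 10143, 11046 and 11394 across ATF3 1 to 4. These values overlapped, and the change was 0.15 with an interval of -0.08 to 0.37. The ratio of Hadhb to Hadha in TPM was 0.83 to 1.02 in Null and 1.06 to 1.26 in ATF3. Of the stretches of Hadhb, 19.5% occur in the annotated gene Gm13910.

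Hadh, the short-chain hydroxyacyl-CoA dehydrogenase, was at 0.02 with an interval of -0.18 to 0.23. Acaa2, the mitochondrial thiolase of the last step, measured 13577, 15559, 13802 and 21560 across Null 1 to 4, against 17665, 23156, 20208 and 21178 across ATF3 1 to 4. Null 4 was the one Null library within the ATF3 range. The change of Acaa2 was 0.37 (SE 0.16, adjusted p = 0.126), and it became 0.52 without Null 4, where it passed (adjusted p from 0.00674 to 0.271 over the omissions).

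Auxiliary enzymes let unsaturated fatty acids enter the cycle, and here the members parted. Decr1, the mitochondrial dienoyl-CoA reductase, measured 4160, 4685, 4502 and 6315 across Null 1 to 4, against 6559, 8385, 7802 and 8129 across ATF3 1 to 4. The groups did not overlap, and Decr1 rose by 0.66 (SE 0.14, adjusted p = 0.00717). Eci2, an enoyl-CoA isomerase of mitochondria and peroxisomes, measured 4732, 4186, 4513 and 6326 across Null 1 to 4, against 3178, 3951, 3335 and 3981 across ATF3 1 to 4. Every ATF3 library was below every Null library, and Eci2 fell by 0.44 (SE 0.14, adjusted p = 0.0465), although with the TPM as deposited it stood at 0.56 where the median of all genes was 0.68. The Eci2 call was lost without Null 1, Null 3 or any single ATF3 library (adjusted p from 0.0394 to 0.128). It was also lost with upper-quartile rescaling (0.0751), rescaled TPM (0.0534), no filter on low values (0.0585) and library weights (0.0506). Eci1, its mitochondrial counterpart, was at -0.23 with an interval of -0.50 to 0.05, and at -0.12 without Null 4. The ratio of Eci2 to Decr1 in TPM was 1.70 to 2.16 in Null and 0.811 to 0.929 in ATF3.

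**Figure D4:**
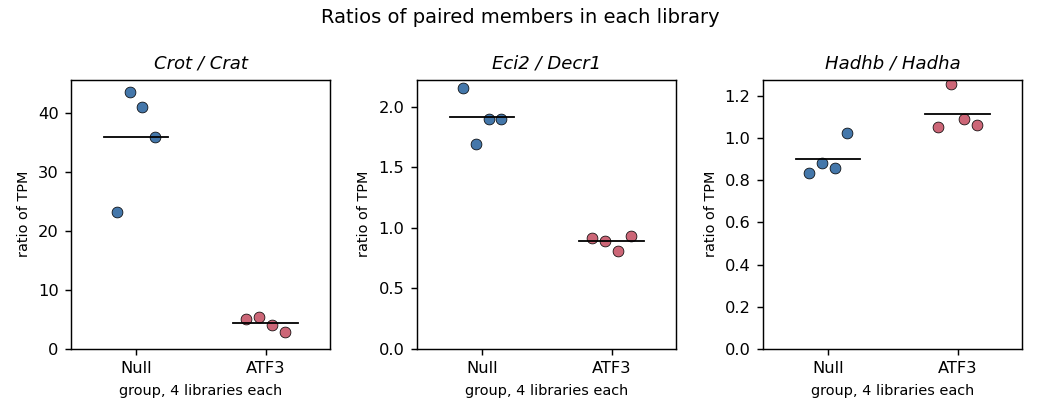
Ratio of TPM between 2 members (vertical axis, from 0) in each library (points) with the group mean (line). The 3 pairs were chosen after their values were seen. Crot over Crat was 23.3 to 43.6 in Null and 2.75 to 5.40 in ATF3, and Eci2 over Decr1 fell below 1 in ATF3. Hadhb over Hadha was above 1 in the 4 ATF3 libraries (1.06 to 1.26) and in Null 4 (1.02).

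In the peroxisomal class, 3 of 8 members rose, 1 (Crot) fell and 4 did not pass. The shares called among all genes tested were 11.4% higher and 9.82% lower. Ehhadh, the bifunctional hydratase and dehydrogenase, measured 8131, 6957, 6101 and 7561 across Null 1 to 4, against 9736, 11897, 10993 and 16536 across ATF3 1 to 4. The groups were apart, ATF3 4 was the highest, and Ehhadh rose by 0.75 (SE 0.16, adjusted p = 0.00819). Acaa1a, a peroxisomal thiolase, measured 2473, 3273, 2848 and 2702 across Null 1 to 4, against 3578, 4065, 3567 and 3432 across ATF3 1 to 4. It rose by 0.38 (SE 0.10, adjusted p = 0.0274), and the call was lost without Null 1, Null 3, ATF3 2, ATF3 3 or ATF3 4 (adjusted p from 0.0153 to 0.0814). Decr2, the peroxisomal dienoyl-CoA reductase, rose by 0.26 (SE 0.08, adjusted p = 0.0422), its Null mean being 5040 ± 273 and its ATF3 mean 6021 ± 127 normalized counts (SD, n = 4). Its call held only without Null 4 among the 8 omissions (adjusted p from 0.0211 to 0.117). It was also lost without a filter (0.0520) and with the robust variance (0.0532).

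Acaa1b, the second thiolase gene, shares 40% of its 31-base stretches with Acaa1a, so the split of reads between them is uncertain. It was at 0.16 with an interval of -0.24 to 0.57, and lay between 0.034 (without Null 3) and 0.29 (without ATF3 1) over the omissions. Hsd17b4, the second bifunctional enzyme, was at 0.12 with an interval of -0.13 to 0.37, and lay between 0.044 (without Null 4) and 0.19 (without Null 2) over the omissions. Amacr, the racemase that prepares branched chains and bile acid intermediates, was at -0.28 (SE 0.13, adjusted p = 0.165) and passed as lower without Null 1 (-0.41; adjusted p from 0.0278 to 0.296). Scp2, which yields both a thiolase and a sterol carrier protein, measured 90664, 117536, 107246 and 72255 across Null 1 to 4, against 56283, 72879, 78728 and 67396 across ATF3 1 to 4. Null 4 lay within the ATF3 range, and the change of -0.48 (SE 0.17, adjusted p = 0.077) did not pass. Without Null 4 it was -0.61 and passed (adjusted p from 0.014 to 0.184). With the TPM as deposited Scp2 and Amacr had positive values, 0.53 and 0.68, beside a shift of 0.68 for all genes. Of the stretches of Scp2, 33.4% occur in its pseudogene Scp2-ps2.

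Bdh1, the enzyme that converts acetoacetate to beta-hydroxybutyrate, was the single ketogenic member. It measured 3714, 4567, 4570 and 4436 across Null 1 to 4, against 5676, 6471, 6248 and 6887 across ATF3 1 to 4. The lowest ATF3 library was above the highest Null library, and Bdh1 rose by 0.55 (SE 0.10, adjusted p = 0.00357). Vnn1, a pantetheinase that releases a building block of coenzyme A and responds to PPAR-alpha, measured 1426, 1380, 1433 and 1564 across Null 1 to 4, against 1975, 2867, 2988 and 3548 across ATF3 1 to 4. Vnn1 rose by 0.94 (SE 0.16, adjusted p = 0.00203), with Null tight and ATF3 spread. Pdk4, the kinase that shuts off pyruvate dehydrogenase in fasting, was low, with 79.5 to 126 normalized counts in Null and 102 to 128 in ATF3. Its change was 0.16 with an interval of -0.21 to 0.52, and it lay between 0.041 (without Null 4) and 0.26 (without Null 1) over the omissions.

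Levels per transcript length were taken from the deposited TPM after rescaling between libraries by the median of ratios. Scp2 had the highest level of the members in both groups, a mean of 1525 ± 311 TPM for Null and 1081 ± 149 TPM for ATF3 (SD, n = 4). Acaa2 followed with 433 ± 99.1 and 551 ± 61.2 TPM, and its Null and ATF3 values overlapped. Crot came next in Null, at 330 ± 53.5 TPM, beside Acaa1b at 320 ± 58.7, and those neighbours did not differ beyond their spread. In ATF3 Crot was at 77.0 ± 10.1 TPM, rank 24 of 36. Ppargc1a, Fgf21 and Pdk4 were the lowest, at 2.42, 1.92 and 1.21 TPM in Null. The summed level of the 8 peroxisomal members was 2386 to 3020 TPM in Null and 1746 to 2237 in ATF3, without overlap. With Scp2 and Crot left out of the sum it was 708 to 858 in Null and 792 to 1088 in ATF3, with overlap. The 21 mitochondrial members summed to 2173 to 2517 TPM in Null and 2476 to 2893 in ATF3, with overlap. Leaving out Acaa2, they were 1802 to 1975 and 2002 to 2325, without overlap. Acaa2 held 578 TPM in Null 4, against 366 to 417 in Null 1 to 3. The sums and the genes left out of them were not set in advance, so this separation rests on the choice of Acaa2.

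**Figure D5:**
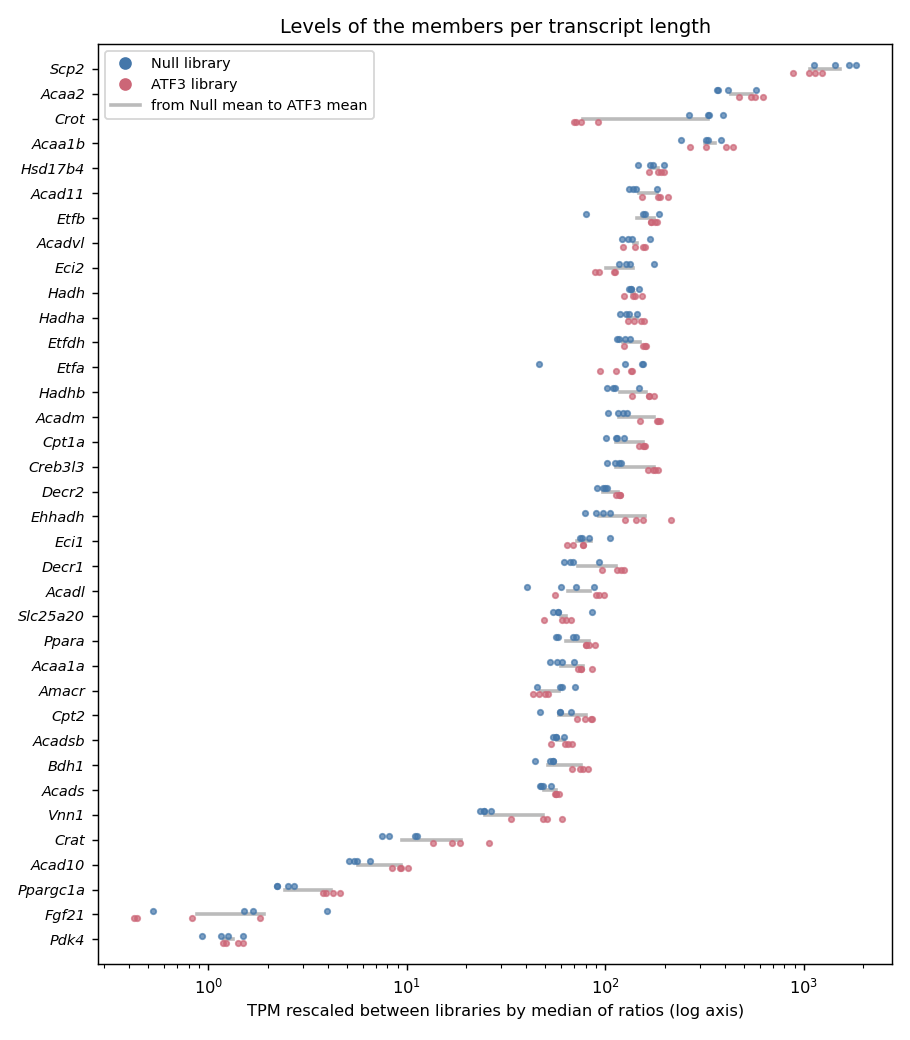
TPM after rescaling (horizontal log axis) of each member in the 4 Null and 4 ATF3 libraries (points), ordered by the Null mean, with a line from the Null to the ATF3 mean. Crot moves from 330 to 77.0 TPM, and most other lines are short and point to the right.

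Related genes outside the set were counted in the same limma fit from 5 lists, of which 115 of 120 symbols were tested. Of 18 other mitochondrial oxidation genes, 5 rose and 0 fell, or 27.8% and 0%, with a median of 0.28. The shares of all genes tested were 11.4% and 9.82%. At an unadjusted p under 0.05, 6 of the 18 were higher and 1 was lower. Among all 13301 genes, Acad11 (limma, unadjusted p = 0.0397) ranked 4180, so at least that many were under 0.05 in either direction. With library weights 8 of the 18 were called higher and 1 lower, beside 2271 and 2130 of all 13301 genes. Hsd17b10, a mitochondrial hydroxyacyl-CoA dehydrogenase, rose by 1.48 (SE 0.13, adjusted p = 4.04e-05), from 1866 ± 290 to 5220 ± 754. Acot2, a mitochondrial thioesterase, rose by 2.69 and Slc22a5, the carnitine importer, by 1.07.

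Of 10 other ketone body genes, 2 rose and 1 fell, or 20% and 10%, beside 11.4% and 9.82% of all genes tested. Aacs, which uses acetoacetate for lipid synthesis in the cytosol, rose by 1.76. Slc16a6, a transporter for ketone body export, fell by 1.18 (SE 0.25, adjusted p = 0.00835). These 2 genes moved in opposite directions.

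Of 31 other peroxisomal genes, 7 rose and 4 fell, with a median of 0.05. These were 22.6% and 12.9% of the list, beside 11.4% and 9.82% of all genes tested. Pex11a, a peroxisome division gene responsive to PPAR-alpha, rose by 1.92 (SE 0.21, adjusted p = 0.000133). Nudt7, a peroxisomal coenzyme A diphosphatase, fell by 2.30 (SE 0.12, adjusted p = 8.21e-07), a size close to that of Crot. Of 26 other PPAR-alpha responsive genes tested, 11 rose and 6 fell, or 42.3% and 23.1%, beside 11.4% and 9.82% of all genes tested. Acot3, a peroxisomal thioesterase with closely related neighbours, rose by 4.94. Gpt2, an alanine transaminase, rose from a mean of 10858 to 21681 normalized counts (adjusted p = 0.000236). Retsat, the retinol saturase, fell by 0.96, but with the TPM as deposited it stood at 0.042 against the shift of 0.68 for all genes. Genes of this list were called in both directions, as were genes among all those tested. Whether the receptor acts on them here was not tested.

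Of 30 other regulators of fatty acid oxidation, 0 rose and 9 fell with limma, and 28 had a negative value, with a median of -0.32. The 30% called lower in this fit compares with 9.82% of all genes tested. At an unadjusted p under 0.05, 0 were higher and 16 lower, where at least 4180 of all 13301 genes passed in either direction. With library weights 0 were called higher and 15 lower, beside 2271 and 2130 of all 13301 genes. Prkaa2, a catalytic subunit of the kinase AMPK, fell by 0.83 (SE 0.12, adjusted p = 0.000866), from 4334 ± 601 to 2425 ± 278. Ppargc1b, the close relative of Ppargc1a, fell by 0.86 (SE 0.15, adjusted p = 0.00269), and Pparg, the gamma receptor, fell by 1.04. With the TPM as deposited, Prkaa2 and Ppargc1b stood at 0.13 and 0.028, below the shift of all genes. Ppara, Ppargc1a and Creb3l3 rose while 9 of these 30 regulators fell.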

How the data were processed

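Total RNA was extracted from mouse liver and made into stranded total RNA libraries, per the labels' protocols. The submitters' processing notes name Bowtie2 and mm10, and no source used here gives the quantifier or annotation. The authors deposited a signal of normalized counts per gene, by the table's name a DESeq scaling, and a second table of TPM. Apart from constants per gene and library, both agreed to an SD of 0.00535 in log2. Mir6236 held 0.308% to 89.4% of the TPM per library, so the TPM as deposited were not used as the main values.

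log2(value + 1) was fitted with limma 3.58.1 in R 4.3.3 (eBayes with a trend, two-sided, Benjamini-Hochberg, threshold 0.05), over the 13301 genes that reached 10 or more in 4 or more libraries. Changes of low genes are understated by the added 1. The members and lists were chosen with earlier results of these data known. Genes named beyond the members are Atf3 and the 3 with the smallest p in each related list. Some genes that this rule names are not reported here. Positions and shared 31-base stretches come from GENCODE vM21, which may differ from the authors' annotation. Column titles assigned the libraries, and their order numbers them without pairing. At most 0.0752% of values were identical between any 2 libraries. The procedure was tested on simulated data. Figures and tables were made with Python 3.11.15, pandas 2.3.3 and matplotlib 3.10.9. Alternatives covered scaling, TPM, added value, filter, variance, library weights and leaving out each library.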

Additional observations from a re-analysis of the deposited data

Results flagged for a closer look

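In 5 of 72 sets of 4 libraries (36 members in each group), 1 library lay far from the other 3 relative to the range of the group; chance gives about 1 in 20 sets. Slc25a20 held 3708 normalized counts in Null 4, against 2345 to 2500 in the other Null libraries. Acadm held 7737 in ATF3 1, against 9342 to 9653 in the other ATF3 libraries. Etfdh held 7175 in ATF3 1, against 8898 to 9231. Acads held 2974 in ATF3 3, against 2823 to 2845. Bdh1 held 3714 in Null 1, against 4436 to 4570. Of these genes, Acadm and Bdh1 were called higher, and they passed without each single library.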

How the results depend on the processing

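No paired analysis was possible because the labels give no replicate numbers shared between the groups. Of the 17 members called, 11 kept call and sign in each of the 8 omissions of a library, and the same number did so in all alternatives other than the TPM as deposited. With the TPM as deposited, the median of all genes moved from 0.01 to 0.68 and the median of the members to 1.26. There limma called 440 genes higher and 76 lower (1513 and 1306 as reported), of the members 0 and 0 (6 and 0 at an unadjusted p under 0.05), and of the related genes 7 and 0 (21 and 0 unadjusted). Slc25a20, Eci1, Eci2, Scp2, Amacr, Retsat, Prkaa2 and Ppargc1b then turned to 0.91, 0.76, 0.56, 0.53, 0.68, 0.042, 0.13 and 0.028. After rescaling of the TPM, members called were 15 and 1. With upper-quartile rescaling 1 member was called lower, and without a filter 1. Library weights called 2271 genes higher and 2130 lower and 31 related genes lower, added Acad11, Hadha, Etfdh and Acaa2 to the higher and Scp2 and Amacr to the lower members, and turned Slc25a20 to 0.093 and Etfa to -0.17. Leaving out 1 library gave 1040 to 1965 genes higher and 851 (without ATF3 3) to 1812 lower, 10 to 18 members higher and 1 to 3 lower, and 15 to 33 related genes higher and 12 to 26 lower. The median of the members ranged from 0.25 to 0.34. Values that changed sign there were Acadvl, from -0.0023 (without Null 1) to 0.16, Hadh, from -0.027 (without ATF3 2) to 0.077, Slc25a20, from -0.14 to 0.084 (without Null 4, and 0.028 without ATF3 1), and Etfa, from -0.28 (without Null 4) to 0.30. Fgf21 was not tested at a minimum of 50. The cause of these changes was not tested.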
